A study of Homo sapiens with 30 samples.

Results

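The cytosolic ribosomal protein genes were followed across the colorectal cancer cell lines Caco2, HCT116 and SW480. They were taken by symbol: RPL or RPS followed by a number, with or without the suffix A or X, together with RPSA, RPLP0, RPLP1 and RPLP2. This gave 77 genes of 24462 symbols in the tables, 46 of the large and 31 of the small subunit. Expression was measured by QuantSeq, which reads 1 tag near the 3′ end of a polyadenylated transcript, in 30 libraries in 10 groups of 3. All cells were retrovirally transduced and selected with puromycin, as far as the labels say. Caco2 was given as shSETDB1 cells sorted as KRT20-positive, shSETDB1 cells sorted as KRT20-negative, shScramble cells in differentiation medium and shScramble cells in vehicle. The differentiation medium held troglitazone (10 uM), an agonist of the nuclear receptor PPARG, and 1α,25-dihydroxyvitamin D3 (25 nM), which binds the receptor VDR. HCT116 and SW480 were each given as shSETDB1 KRT-positive cells, shSETDB1 KRT-negative cells and unsorted cells. SETDB1 encodes a histone H3 lysine 9 methyltransferase that silences genes and repeats, and KRT20 encodes a keratin of mature gut epithelium. The labels give neither the medium of the shSETDB1 and unsorted cells, nor the hairpin of the unsorted cells, nor which keratin the HCT116 and SW480 sort used, nor whether replicates were separate cultures, so a p-value here measures only the spread among these samples, which may be technical.

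Ribosomal proteins and ribosomal RNA build the small subunit, which reads the mRNA, and the large subunit, which joins amino acids and releases the chain. Cells make the proteins in near equal numbers, and their mRNAs are abundant and stable. Most of these mRNAs begin with a cytosine followed by a run of pyrimidines, the 5′ terminal oligopyrimidine (TOP) motif, through which the kinase mTORC1 and the protein LARP1 set their translation. In the gut, proliferating crypt cells are known for high ribosome production.

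A run of pyrimidines was looked for at the start of each gene, with a C at the RefSeq start and at least 4 C or T after it on the gene's strand. It was present in 46 of 62 members matched to a RefSeq promoter entry (74.2%), 28 of 38 of the large and 18 of 24 of the small subunit, against 4.99% of 27243 other symbols. With the run allowed to begin within 10 bases of the start, it was present in 91.9% of members and 38.3% of other symbols. The 30 bases around the start are printed for members on which the results below turn, with 15 bases on either side, from RefSeq on GRCh38.p14, 5′ to 3′ on the gene's strand. Capitals mark the unbroken pyrimidine run that begins at the listed start.
RPL37A (chr2:216498829-216498858, plus strand): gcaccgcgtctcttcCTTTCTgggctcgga
RPS24 (chr10:78033848-78033877, plus strand): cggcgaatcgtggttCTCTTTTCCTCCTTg
RPS3 (chr11:75399503-75399532, plus strand): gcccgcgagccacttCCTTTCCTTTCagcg
RPLP0 (chr12:120201097-120201126, minus strand): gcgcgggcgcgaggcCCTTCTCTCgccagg
RPL11 (chr1:23691791-23691820, plus strand): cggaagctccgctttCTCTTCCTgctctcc
RPS9 (chr19:54200843-54200872, plus strand): gtggcgcttccgcgcCTCTTTCTCagtgac
RPS25 (chr11:119018329-119018358, minus strand): tctgagcagcgcttcCTTTTTgtccgacat
RPL10A (chr6:35468386-35468415, plus strand): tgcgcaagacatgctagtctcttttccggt
RPS29 (chr14:49598696-49598725, minus strand): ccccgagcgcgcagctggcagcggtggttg
RPS28 (chr19:8321481-8321510, plus strand): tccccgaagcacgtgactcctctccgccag

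The first 7 hold the run at the listed start, and RPL10A, RPS29 and RPS28 do not. A match is a description of these letters and not a measured transcription start.

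Sequencing gave 6538087 to 10074838 counts per Caco2 library, 5349737 to 10221854 per HCT116 library and 6915326 to 10036179 per SW480 library, of which 438803 to 1136739 fell on the 77 members. SETDB1 averaged 22.9 CPM (counts scaled to library size with TMM factors) in Caco2 KRT20-positive and 21.4 CPM in KRT20-negative cells, against 30.7 CPM in vehicle. In HCT116 it lay between 0 and 31.2 CPM in the sorted libraries and between 16.8 and 72.4 CPM in the unsorted ones, and in SW480 the KRT-negative replicate 1, at 36.0 CPM, was not below the unsorted libraries. HCT116 unsorted replicate 3, at 16.8 CPM, lay within the range of the sorted libraries, so both stand under their labels as given and results are also given without them. KRT20 ran from 25.9 to 37.8 CPM in Caco2 KRT20-positive and from 1.02 to 1.76 CPM in KRT20-negative libraries, and from 44.3 to 74.97 CPM in SW480 KRT-positive and from 0 to 0.665 CPM in KRT-negative libraries. In HCT116 KRT20 was at 0 counts in 2 of 3 KRT-positive libraries. Of 10 colon epithelium markers, 9 averaged over 1 CPM in Caco2, 6 in HCT116 and 7 in SW480. EPCAM group means ran from 214 to 550 CPM in HCT116 and from 226 to 327 CPM in SW480. CDX1, VIL1 and CDH17 were at 0 in every HCT116 library and CDX1 and LGALS4 in every SW480 library. Library by library, the slope of expression on the GC content of transcripts parted the HCT116 and SW480 libraries into an AT class, in which GC-rich transcripts were low, and a GC class. The AT class held HCT116 KRT-positive replicates 1 to 3, KRT-negative replicate 1 and unsorted replicates 1 and 2, and replicate 2 of every SW480 group. Caco2 KRT20-negative replicate 3 also stood apart: its 8 fibroblast markers summed to 593 CPM, against 35.1 and 46.1 CPM in replicates 2 and 1, with COL6A3 at 264 CPM.

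Levels of single members spanned a 338-fold range of mean CPM over the 30 libraries. A 3′ tag count is not divided by transcript length, since a transcript gives about 1 tag whatever its length. RPS27A, which encodes a ubiquitin fused to a small-subunit protein, was the highest at 8693 CPM, followed by RPL27A (4558 CPM), RPS3 at the mRNA entry (4494 CPM), and RPLP0 and RPLP2 of the stalk that binds elongation factors (2810.1 and 2679 CPM). The order pools 12 Caco2 libraries with 9 of each other line and differed by line: RPS3 was at rank 2 in Caco2, 12 in HCT116 and 5 in SW480, while RPS27A was at rank 1 in each line. There were 28 members at 1000 CPM or more, and the 10 highest held 42.2% of the members' CPM. At the low end were RPL15 (25.7 CPM), RPS26 (26.2 CPM), RPL21 (39.4 CPM), RPL9 (65.2 CPM), RPL7 (71.7 CPM) and RPS27 (99.8 CPM), the only 6 under 100 CPM.

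Ribosomal protein genes have near-identical processed copies elsewhere in the genome, and how tags that match several places were assigned is not given in the sources used here. RPL21 has 66 annotated pseudogenes in GENCODE 29, RPL7 has 61 and RPS26 has 30. Counts listed under the symbol RPS26P11 lay at 33.9 to 50.9 CPM in Caco2, 22.9 to 51.5 CPM in HCT116 and 24.2 to 59.7 CPM in SW480, while RPS26 itself lay at 21.8 to 38.0 CPM in Caco2, 16.4 to 34.7 CPM in HCT116 and 14.7 to 36.9 CPM in SW480. Over the 77 members the Spearman correlation of mean level with the number of annotated pseudogenes was -0.26, given as a description, since members share libraries and sequence families. RPSA has 74 and RPL23A 91 such copies, so that the levels of these members are uncertain. Symbols of readthrough transcripts, RPL36A-HNRNPH2, RPS10-NUDT3 and RPL17-C18orf32, also took counts beside RPL36A, RPS10 and RPL17. The plot of levels by cell line shows the members by subunit.

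**Figure D1:**
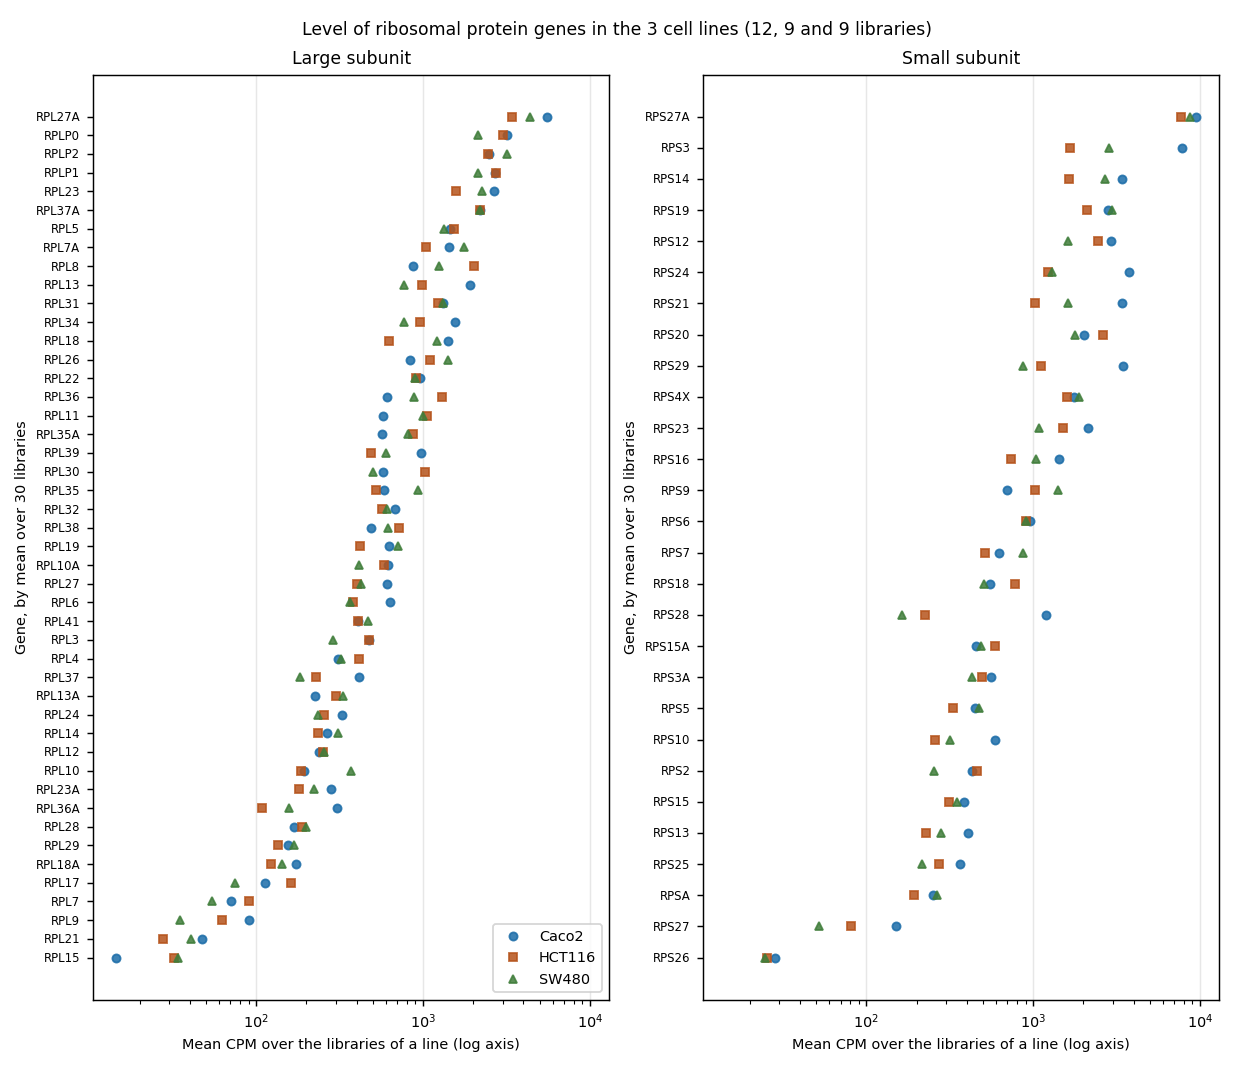
Mean CPM of ribosomal protein genes (log axis) in Caco2, HCT116 and SW480 libraries, large subunit left and small subunit right, with genes in order of their mean over 30 libraries. RPS27A is the highest in all 3 lines and RPS3, RPS21, RPS24, RPS28 and RPS29 stand to the right in Caco2.

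The lines differed in the balance of the subunits. The ratio of large-subunit to small-subunit counts ran from 0.720 to 0.799 over the 12 Caco2 libraries, from 0.978 to 1.19 over the 9 of HCT116 and from 0.946 to 1.07 over the 9 of SW480, so Caco2 did not overlap the other lines. Within HCT116 the 6 AT-class libraries lay at 1.10 to 1.19 and the 3 GC-class libraries at 0.978 to 1.084. Exactly 5 members had at least 2-fold the mean CPM in Caco2 than in both other lines, RPS3, RPS21, RPS24, RPS28 and RPS29, all of the small subunit. RPS3 averaged 7846 CPM in Caco2, 1657 CPM in HCT116 and 2863 CPM in SW480, and RPS28 averaged 1199, 225 and 163 CPM in the same order. Together the 5 made up 34.8% of the small subunit's CPM in Caco2, 14.9% in HCT116 and 17.7% in SW480. RPL8, RPL36 and RPL15 ran the other way in HCT116: RPL8 averaged 870.4 CPM in Caco2, 2036 CPM in HCT116 and 1249.9 CPM in SW480. The lines were normalised separately and share no library, so these are descriptions without a test.

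Among paralogs outside the symbol rule, RPL22L1, the paralog of RPL22, lay at 67.5 to 84.5 CPM in Caco2, 545 to 1145 CPM in HCT116 and 78.00 to 229 CPM in SW480, with no overlap of HCT116 with the other lines. RPL22 itself averaged 956 CPM in Caco2, 913 CPM in HCT116 and 900.4 CPM in SW480, close together. RPL22 and RPL22L1 were therefore at similar levels in HCT116, while RPL22 was far above its paralog in the other lines.

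As a share of all counts, the 77 members took 9.90% ± 0.118 in Caco2 KRT20-positive cells, 10.4% ± 0.744 in KRT20-negative cells and 10.3% ± 0.0472 in differentiation medium, against 8.88% ± 0.0665 in vehicle (SD, n = 3 each). In HCT116 they took 5.60% ± 0.0132 in KRT-positive and 8.37% ± 0.827 in KRT-negative cells, against 7.67% ± 0.785 in unsorted cells. In SW480 the shares were 7.01% ± 0.969 in KRT-positive and 8.42% ± 0.770 in KRT-negative cells, against 7.67% ± 0.606 in unsorted cells. Caco2 vehicle was below each other Caco2 group without overlap, and HCT116 KRT-positive was below both other HCT116 groups without overlap, while the SW480 groups overlapped when GC classes are pooled. Within the AT class, 1 SW480 library a group, the share was 5.89% in KRT-positive and 7.54% in KRT-negative cells, against 6.98% in unsorted cells. Within the GC class, 2 libraries a group, it was 7.55% and 7.58% in KRT-positive and 8.93% and 8.80% in KRT-negative cells, against 8.08% and 7.96% in unsorted cells, so in both classes KRT-positive was lowest and KRT-negative highest. In bulk samples fewer cells with a transcript and less of it per cell cannot be told apart.

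**Figure D2:**
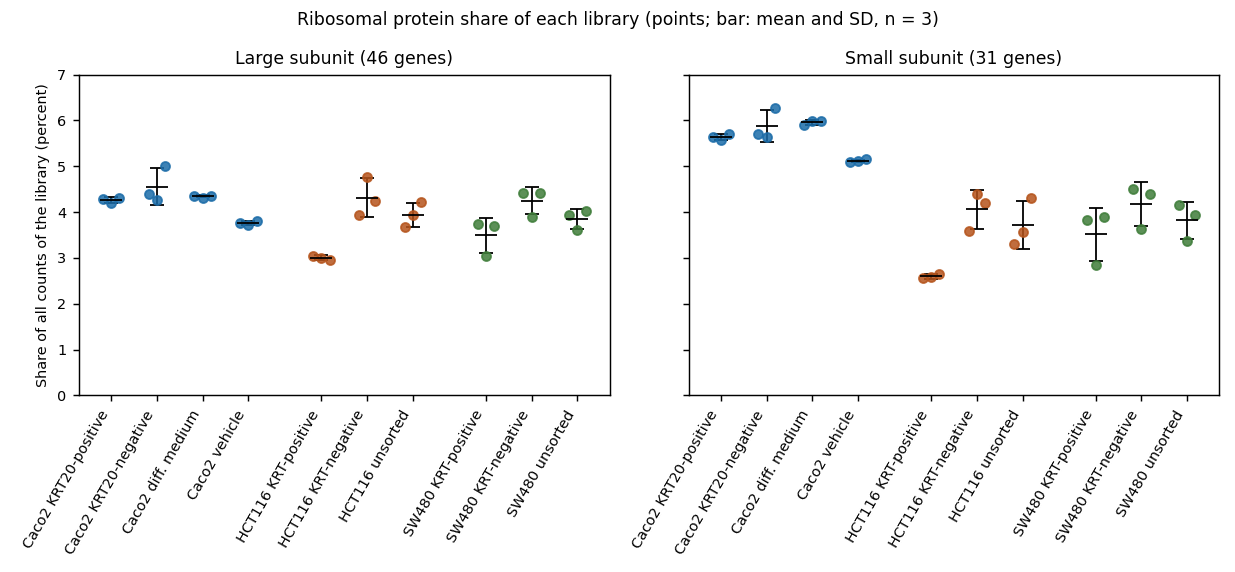
Share of each library's counts on the large-subunit genes (left) and small-subunit genes (right), in percent. Points are libraries and bars the mean and SD of 3. Both subunits sit higher in the 3 treated or sorted Caco2 groups than in vehicle, and lowest in HCT116 KRT-positive cells.

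Differentiation medium was compared with vehicle in Caco2 shScramble cells, which asks what the PPARG and VDR ligands do without the SETDB1 hairpin. Ribosomal protein mRNAs were higher: 39 of 77 members rose and 0 fell (edgeR's quasi-likelihood test with Benjamini-Hochberg adjustment over 13968 genes, adjusted p under 0.05), against 10.4% of all tested genes called higher and 10.5% called lower. The rises covered 22 of 46 large-subunit and 17 of 31 small-subunit genes. They were small: the median log2 fold change was 0.23 over the members and -0.0049 over all tested genes, and 3 members reached 1.5-fold. In 56 members the 3 libraries in differentiation medium lay above all 3 in vehicle, as in 19.7% of all tested genes, and in 1 member they lay below, as in 19.4% of all.

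RPS29, a zinc-binding protein of the small-subunit head, had 3753, 4395 and 3971 CPM in differentiation medium, against 2546, 2540.2 and 2639 CPM in vehicle. Every treated library lay above every vehicle library (log2 fold change 0.65 with SE 0.07, adjusted p = 1.3e-07). RPL37A, a zinc-binding large-subunit protein, had 2432, 2367 and 2425 CPM in differentiation medium, against 1554, 1535 and 1756 CPM in vehicle. The groups did not overlap (log2 fold change 0.58 with SE 0.07, adjusted p = 7.63e-07). RPL10A, of the L1 stalk at the exit site for tRNA, had 658, 672 and 717 CPM in differentiation medium, against 476, 457 and 461 CPM in vehicle. These groups were apart as well (log2 fold change 0.55 with SE 0.07, adjusted p = 2.06e-06). RPL7 had 87.1, 88.6 and 91.9 CPM in differentiation medium, against 56.2, 49.01 and 60.1 CPM in vehicle, a low level for a member. Its 1.62-fold rise (log2 fold change 0.70 with SE 0.09, adjusted p = 6.14e-06) was the largest of the 4. RPL27 rose by a log2 fold change of 0.43 ± 0.07 (SE; adjusted p = 3.99e-05).

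The stalk genes RPLP0, RPLP1 and RPLP2 all had log2 fold changes above 0 in this comparison, and differences between genes were not tested. RPLP0 had 3622, 3519 and 3544 CPM in differentiation medium, against 2763, 2805 and 2680.2 CPM in vehicle, and RPLP2 had 2786, 2804 and 2849 CPM, against 2189.6, 2239 and 2221 CPM. Both rose, by log2 fold changes of 0.37 ± 0.08 (SE; adjusted p = 0.000884) and 0.34 ± 0.06 (SE; adjusted p = 0.000344), while RPLP1 did not pass the test (log2 fold change 0.18 with SE 0.08, adjusted p = 0.0923). RPL5 rose (log2 fold change 0.23 with SE 0.06, adjusted p = 0.0128), while RPL11, its partner in the 5S particle that can bind MDM2, did not pass (log2 fold change 0.17 with SE 0.13, adjusted p = 0.41). RPS27A, the most abundant member, had 11378, 10336 and 11773 CPM in differentiation medium, against 8051, 7640.1 and 8064 CPM in vehicle. Its groups were apart (log2 fold change 0.50 with SE 0.09, adjusted p = 0.000583). RPS3 and RPS24, among the 5 members high in Caco2, did not pass, at log2 fold changes of 0.17 ± 0.10 (SE; adjusted p = 0.219) and -0.05 ± 0.07 (SE; adjusted p = 0.636). FAU, which encodes a further small-subunit protein as a fusion with a ubiquitin-like protein and lies outside the symbol rule, rose (log2 fold change 0.42 with SE 0.07, adjusted p = 7.69e-05).

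**Figure D3:**
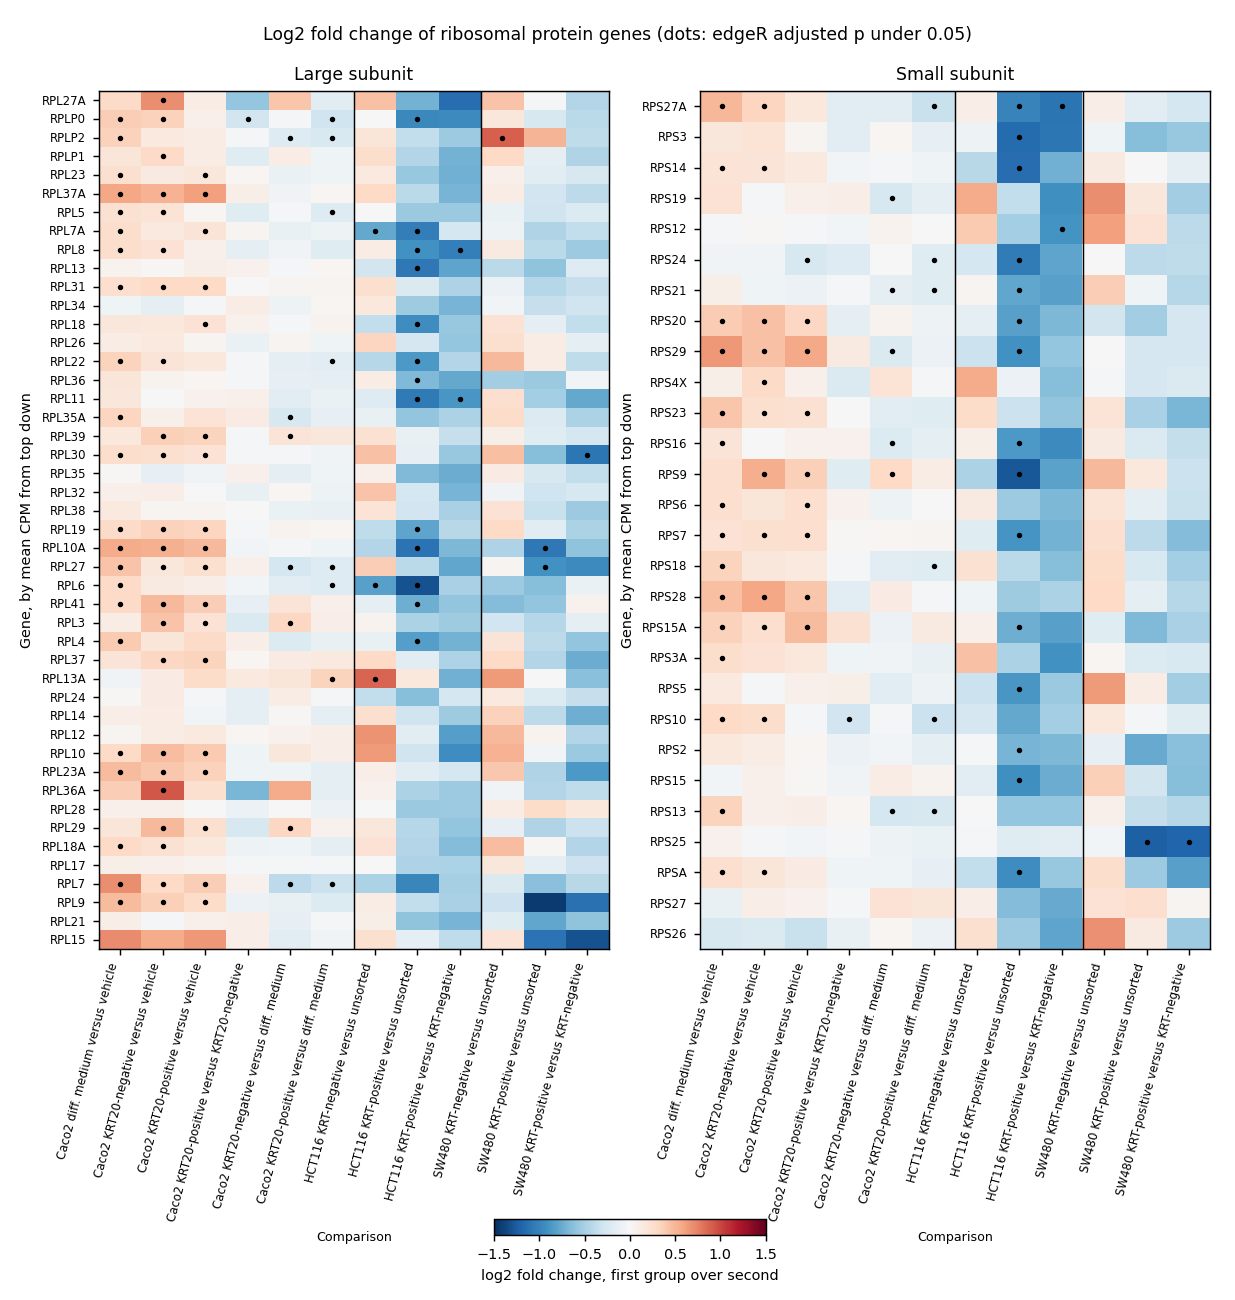
Log2 fold change of ribosomal protein genes (rows, by mean CPM) in the 12 comparisons (columns; vertical lines part Caco2, HCT116 and SW480), large subunit left and small subunit right. Red is higher and blue lower in the first group named, and dots mark an edgeR adjusted p under 0.05. The Caco2 comparisons with vehicle are mostly red, and the column of HCT116 KRT-positive against unsorted cells is mostly blue.

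The shSETDB1 Caco2 fractions were then set against shScramble vehicle. The fractions differ from vehicle in the hairpin and in being sorted by KRT20, since the vehicle labels name no sort, and their medium is not stated. The parts of hairpin, sorting and medium cannot be told apart here. Members were higher in both fractions. In KRT20-positive cells 29 of 77 rose and 1 fell, against 19.3% and 18.4% of all tested genes, with a median log2 fold change of 0.14 over the members and 0.01 over all genes. In KRT20-negative cells 38 rose and 0 fell, against 18.6% and 17.6% of all tested genes, with medians of 0.19 and 0.01. Without KRT20-negative replicate 3, the library with high fibroblast markers, 36 members were higher and 2 lower, with a median of 0.16 over the members, against 18.3% and 18.8% of all genes tested in that fit; the lower ones were RPL35 and RPS26. The 3 comparisons share the vehicle libraries, so their values stand side by side and were not correlated. There were 19 members called higher in all 3, 8 of them of the small subunit, and 26 called in none. The matching shares over all tested genes are not given here, so these joint counts are not read as a trait of the members. Among the 19 were, of the large subunit, RPL7, RPL9, RPL10, RPL10A, RPL19, RPL23A, RPL27, RPL30, RPL31, RPL37A and RPL41, and, of the small subunit, RPS7, RPS15A, RPS20, RPS23, RPS28 and RPS29. RPL11, RPS3, RPS19 and RPS25 were among the 26.

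RPL37A had 2457, 2376 and 2562 CPM in KRT20-positive and 2424, 2245 and 2313 CPM in KRT20-negative cells, all above vehicle, with log2 fold changes of 0.61 ± 0.07 (SE; adjusted p = 8.35e-08) and 0.53 ± 0.07 (SE; adjusted p = 9.47e-07). RPS29 had 3960.3, 3765 and 3709.6 CPM in KRT20-positive and 3461, 3651 and 3342 CPM in KRT20-negative cells, with log2 fold changes of 0.57 ± 0.07 (SE; adjusted p = 3.1e-07) and 0.44 ± 0.07 (SE; adjusted p = 1.44e-05). RPL10A had 655, 621 and 683 CPM in KRT20-positive and 715, 646 and 657 CPM in KRT20-negative cells, with log2 fold changes of 0.49 ± 0.07 (SE; adjusted p = 3.48e-06) and 0.53 ± 0.07 (SE; adjusted p = 1.24e-06). These 3 members, the leading ones in differentiation medium, were thus above vehicle in every library of all 3 groups. RPS15A, RPL19 and RPL37 also led the rises in KRT20-positive cells, at log2 fold changes of 0.48 ± 0.08 (SE; adjusted p = 4.95e-05), 0.32 ± 0.06 (SE; adjusted p = 0.000369) and 0.34 ± 0.07 (SE; adjusted p = 0.000399). In KRT20-negative cells RPS20, RPL10 and RPS9 rose by log2 fold changes of 0.44 ± 0.07 (SE; adjusted p = 6.34e-05), 0.46 ± 0.08 (SE; adjusted p = 0.000142) and 0.54 ± 0.10 (SE; adjusted p = 0.000142).

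RPS24, a small-subunit protein altered in some families with Diamond-Blackfan anaemia, was the 1 member that fell. It had 3498, 3158 and 3428 CPM in KRT20-positive cells, against 3998, 3831 and 4046 CPM in vehicle. The groups did not overlap (log2 fold change -0.24 with SE 0.07, adjusted p = 0.00901). Without KRT20-positive replicate 2, 25 members were higher and 0 lower, against 16.2% and 15.1% of all genes tested in that fit. RPS24, for which that library was the lowest, was thus not called there. In KRT20-negative cells it had 3736, 3535 and 4227 CPM and did not pass the test (log2 fold change -0.05 with SE 0.07, adjusted p = 0.636).

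RPL27A and RPL36A showed the weight of a single library. RPL27A had 5805, 5298 and 10867 CPM in KRT20-negative cells, against 4409.9, 4686 and 4434 CPM in vehicle, and RPL36A had 298, 292 and 702 CPM, against 223, 234 and 224 CPM. Replicate 3 was far above the other KRT20-negative libraries in both. With it the log2 fold changes were 0.70 ± 0.24 (SE; adjusted p = 0.0499) and 0.93 ± 0.31 (SE; adjusted p = 0.0462), and without it they were 0.29 (adjusted p = 0.000281) and 0.37 (adjusted p = 5.57e-05), so both stayed called at a smaller size. RPS28 had 1211, 1225 and 1691 CPM in KRT20-negative cells, against 907, 968 and 894 CPM in vehicle, again with replicate 3 the highest (log2 fold change 0.58 with SE 0.11, adjusted p = 0.000775). The part of the fibroblast markers in these values was not tested. The plot of Caco2 members by library shows this library as the lone high point of RPL27A and RPL36A.

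**Figure D4:**
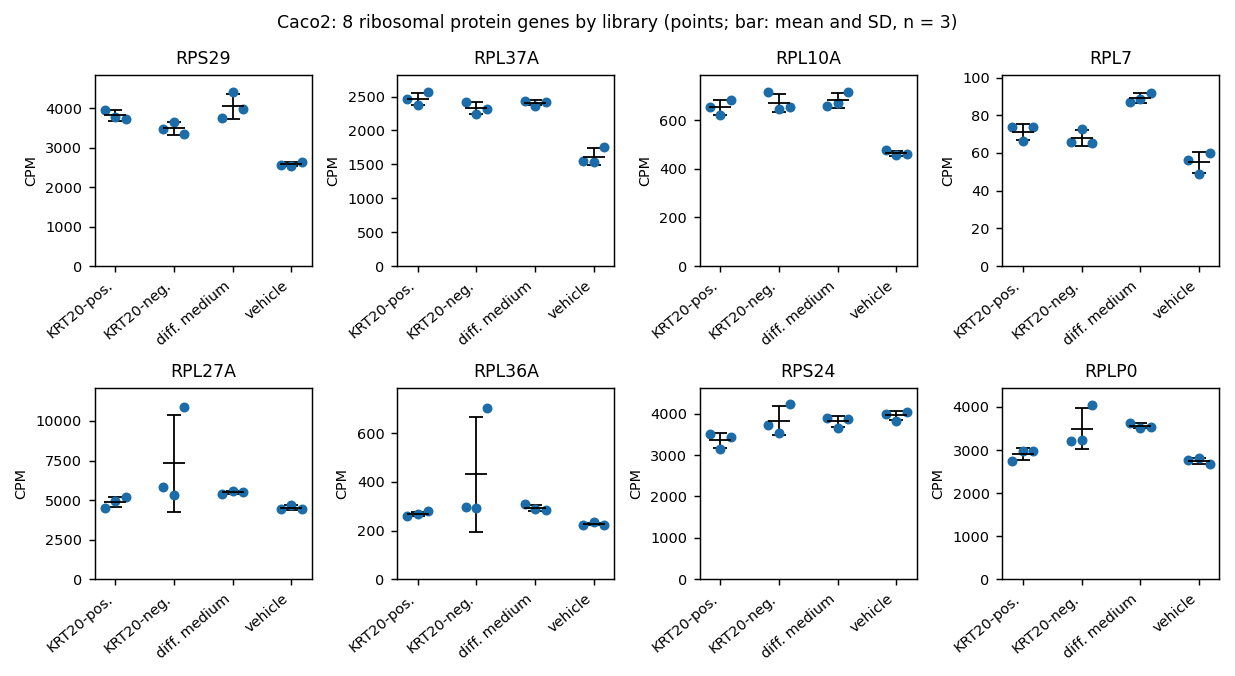
CPM of 8 ribosomal protein genes in each Caco2 library (points), with the mean and SD of 3 (bars). RPS29, RPL37A and RPL10A lie above vehicle in all 9 other libraries, RPS24 is lowest in KRT20-positive cells, and 1 KRT20-negative library stands high for RPL27A and RPL36A.

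Between the fractions little differed. KRT20-positive cells against KRT20-negative cells had 0 members higher and 2 lower, RPS10 and RPLP0, against 2.3% and 1.78% of all tested genes. By DESeq2 0 were higher and 2 lower, against 2.18% and 1.66% of all genes tested in that fit. RPLP0 had 2736, 2975 and 2978 CPM in KRT20-positive cells, against 3200.3, 3241 and 4045 CPM in KRT20-negative cells (log2 fold change -0.27 with SE 0.08, adjusted p = 0.0406). RPS10, on which stalled ribosomes are tagged with ubiquitin, had 511, 529 and 540.0 CPM in KRT20-positive cells, against 578, 607 and 749 CPM in KRT20-negative cells (log2 fold change -0.29 with SE 0.08, adjusted p = 0.0348). The groups did not overlap in either gene, as in 12 members with KRT20-positive lower and 2 with it higher, against 9.76% and 10% of all tested genes. Without KRT20-negative replicate 3, which was the highest library for both genes, neither was called, and RPL35 was called higher (log2 fold change 0.21, adjusted p = 0.0461). Without KRT20-positive replicate 1, 2 or 3 no member was called. Without KRT20-negative replicate 1, 1 member was higher and 3 were lower, against 2.02% and 1.89% of all genes tested in that fit. Without KRT20-negative replicate 2, 0 were higher and 4 lower, against 2.04% and 1.71%.

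Against differentiation medium the fractions were mixed. KRT20-positive cells had 2 members higher and 13 lower, against 18% and 16.6% of all tested genes, and KRT20-negative cells had 5 higher and 9 lower, against 19.6% and 18.4%. As shares of the 77 members these are 2.60% higher and 16.9% lower in KRT20-positive cells and 6.49% higher and 11.7% lower in KRT20-negative cells, none above the share of all genes by more than 1 percentage point. Scaled to library totals, 5 were higher and 6 lower in KRT20-positive cells, against 21.1% and 13.3% of all tested genes. In KRT20-negative cells 7 were higher and 7 lower, against 21.8% and 16.2%, so the lean towards lower depends on the scaling. Without KRT20-negative replicate 3, RPL3 and RPL29 were higher and 17 members lower in that fraction, 22.1% of the members against 18.9% of all genes tested in that fit. Without differentiation medium replicate 1 or 3 the number called was 7 in KRT20-positive cells for either, and 7 or 8 in KRT20-negative cells. Without KRT20-positive replicate 2 it was 7 in KRT20-positive cells. Over all genes tested in those fits, 14.3% to 16.1% were called higher and 13.5% to 15.5% lower. RPL7 averaged 71.2 ± 4.32 CPM in KRT20-positive and 67.9 ± 4.12 CPM in KRT20-negative cells, against 89.2 ± 2.48 CPM in differentiation medium (SD, n = 3 each), and fell by 0.33 ± 0.09 (SE; adjusted p = 0.00712) and 0.39 ± 0.09 (SE; adjusted p = 0.00129) on the log2 scale. RPS13 was also lower in both, at log2 fold changes of -0.24 ± 0.06 (SE; adjusted p = 0.00567) and -0.26 ± 0.06 (SE; adjusted p = 0.00205). RPS27A and RPLP2 were lower in KRT20-positive cells (log2 fold changes -0.34 and -0.23, SE 0.09 and 0.06, adjusted p = 0.00704 and 0.00704).

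Genes that build ribosomes did not follow the ribosomal proteins in the shSETDB1 fractions. Of 35 ribosome biogenesis genes, which process ribosomal RNA and assemble subunits in the nucleolus, 23 fell and 0 rose in KRT20-positive cells against vehicle, and 23 fell and 0 rose in KRT20-negative cells, with median log2 fold changes of -0.36 and -0.35. The 23 are 65.7% of the list, against 18.4% and 17.6% of all tested genes. In differentiation medium 2 rose and 5 fell, with a median of -0.03. These are 5.71% and 14.3% of the list, against 10.4% and 10.5% of all tested genes. The nucleolar protein NCL fell, with log2 fold changes of -0.73 ± 0.08 (SE; adjusted p = 5.4e-08) in KRT20-positive, -0.63 ± 0.08 (SE; adjusted p = 6.36e-07) in KRT20-negative cells and -0.37 ± 0.08 (SE; adjusted p = 0.0011) in differentiation medium. TCOF1, a factor for transcription of ribosomal DNA, had log2 fold changes of -1.07 ± 0.11 (SE; adjusted p = 1.99e-07), -0.999 ± 0.11 (SE; adjusted p = 5.95e-07) and -0.60 ± 0.11 (SE; adjusted p = 0.000443) in the same order. NOP56 and NOP58, of the snoRNP that methylates ribosomal RNA, fell in KRT20-positive cells by log2 fold changes of -0.71 ± 0.08 (SE; adjusted p = 3.04e-07) and -0.80 ± 0.10 (SE; adjusted p = 8.79e-07).

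Mitochondrial ribosomal proteins, the 77 genes named MRPL or MRPS, make up a separate ribosome. In differentiation medium 12 rose and 1 fell, in KRT20-positive cells 3 rose and 12 fell, and in KRT20-negative cells 1 rose and 15 fell, each against vehicle. Against differentiation medium 24 of 77 fell in KRT20-positive and 32 of 77, or 41.6%, in KRT20-negative cells. Falls over all tested genes were 16.6% and 18.4% there. By edgeR 0 of the list rose in either, against 18% and 19.6% of all tested genes. In differentiation medium against vehicle the rises were 15.6% and the fall 1.30% of the list, against 10.4% and 10.5% of all tested genes. Against vehicle the falls were 15.6% and 19.5% of the list in the KRT20-positive and KRT20-negative fractions, near the 18.4% and 17.6% of all tested genes. The rises there were 3.90% and 1.30%, against 19.3% and 18.6%. MRPS6, MRPS26 and MRPL27 had the smallest adjusted p in both fractions, with MRPS26 at log2 fold changes of -0.65 ± 0.09 (SE; adjusted p = 1.62e-06) and -0.62 ± 0.08 (SE; adjusted p = 3.37e-06). Of 16 translation factors and other genes whose mRNAs are known to carry a TOP motif, 7 rose and 1 fell in differentiation medium, 3 rose and 3 fell in KRT20-positive cells, and 6 rose and 2 fell in KRT20-negative cells. The rises were 43.8%, 18.8% and 37.5% of the list in that order, against 10.4%, 19.3% and 18.6% of all tested genes. The elongation factor gene EEF1A1 rose in differentiation medium (log2 fold change 0.51 with SE 0.10, adjusted p = 0.00109), TPT1 rose in KRT20-positive and KRT20-negative cells (log2 fold changes 0.39 and 0.43, SE 0.07 and 0.07, adjusted p = 0.000194 and 7.25e-05), and PABPC1, the poly(A)-binding protein, fell in both (log2 fold changes -0.37 and -0.31, SE 0.07 and 0.07, adjusted p = 8.65e-05 and 0.00063).

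Of 18 regulators of ribosomal protein genes or of mTORC1, 3 rose and 6 fell in KRT20-positive cells, 3 and 5 in KRT20-negative cells and 4 and 4 in differentiation medium. On 18 genes these are 16.7% and 33.3%, 16.7% and 27.8%, and 22.2% and 22.2%. Over all tested genes the shares were 19.3% and 18.4%, 18.6% and 17.6%, and 10.4% and 10.5% in the same order. The rises in the fractions were thus below the shares of all genes. The falls there, and both directions in differentiation medium, were above them. DDIT4, an inhibitor of mTORC1 signalling, rose in all 3 groups, with log2 fold changes of 1.05 ± 0.13 (SE; adjusted p = 7.2e-07), 1.05 ± 0.13 (SE; adjusted p = 6.61e-07) and 1.57 ± 0.13 (SE; adjusted p = 3.35e-09). LARP1, which binds TOP motifs, fell in KRT20-positive and KRT20-negative cells (log2 fold changes -0.40 and -0.32, SE 0.07 and 0.07, adjusted p = 0.000145 and 0.00138), and MYC, a transcription factor for ribosome production, rose in differentiation medium (log2 fold change 0.56 with SE 0.16, adjusted p = 0.0164). Among the paralogs, RPS27L, a target of p53, had 94.4, 93.8 and 92.5 CPM in KRT20-positive and 90.1, 85.8 and 103 CPM in KRT20-negative cells, against 60.1, 70.2 and 60.8 CPM in vehicle. It rose in both, without overlap (log2 fold changes 0.55 and 0.54, SE 0.09 and 0.09, adjusted p = 4.93e-05 and 6.59e-05), and did not pass in differentiation medium (log2 fold change 0.02 with SE 0.10, adjusted p = 0.911). The members with the pyrimidine run at the start had a median log2 fold change of 0.19 in differentiation medium and those without it 0.29 (46 and 16 members); the difference was not tested. In HCT116 KRT-positive against unsorted cells, the comparison described next, these medians were -0.58 and -0.54.

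In HCT116 the direction was the opposite one in KRT-positive cells. Against unsorted cells 28 of 77 members fell and 0 rose, against 5.02% of all tested genes called lower and 4.26% called higher (edgeR, 13279 genes). The falls covered 15 of 31 small-subunit genes, with a median log2 fold change of -0.69, and 13 of 46 large-subunit genes, with a median of -0.51. The median over all members was -0.56 and over all tested genes 0.07. In 58 members every KRT-positive library lay below every unsorted one, as in 14.7% of all tested genes, and 9 members were at 0.5-fold or less. By DESeq2 the numbers were 0 higher and 40 lower, against 7.19% and 7.685% of all genes tested in that fit. In the edgeR fit 2 members had a log2 fold change above 0.

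RPL6 had 249.9, 237 and 213 CPM in KRT-positive cells, against 535, 717 and 476 CPM in unsorted cells. The groups were far apart (log2 fold change -1.30 with SE 0.22, adjusted p = 0.00136). RPS9, a small-subunit protein, had 657, 533 and 607 CPM in KRT-positive cells, against 1005, 1199 and 2138 CPM in unsorted cells, with unsorted replicate 3, of the GC class, the highest. It fell by the second largest amount of those named (log2 fold change -1.27 with SE 0.27, adjusted p = 0.00674). RPS3 had 703, 983 and 1109 CPM in KRT-positive cells, against 1840.1, 1857 and 2512 CPM in unsorted cells (log2 fold change -1.15 with SE 0.25, adjusted p = 0.00674). Again no library overlapped.

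RPL11, the 5S particle protein, had 616, 665 and 641 CPM in KRT-positive cells, against 1256, 1145 and 1612 CPM in unsorted cells (log2 fold change -1.06 with SE 0.19, adjusted p = 0.00185). Its partner RPL5 had 1265, 1163 and 1098 CPM in KRT-positive cells, against 1669, 1949 and 1568 CPM in unsorted cells, and did not pass (log2 fold change -0.56 with SE 0.18, adjusted p = 0.0627). RPS24 had 783, 714 and 802 CPM in KRT-positive cells, against 1446, 1536 and 1791 CPM in unsorted cells (log2 fold change -1.05 with SE 0.19, adjusted p = 0.0019). RPL10A and RPS29, which had risen in Caco2, were lower here, at log2 fold changes of -1.11 ± 0.20 (SE; adjusted p = 0.00237) and -0.91 ± 0.22 (SE; adjusted p = 0.0136), and RPL37A did not pass (log2 fold change -0.40 with SE 0.16, adjusted p = 0.151). RPL13 and RPL7A fell as well (log2 fold changes -1.07 and -1.04, SE 0.19 and 0.21, adjusted p = 0.00195 and 0.00489). Of the stalk, RPLP0 fell (log2 fold change -0.96 with SE 0.22, adjusted p = 0.0106), while RPLP1 and RPLP2 did not pass (log2 fold changes -0.44 and -0.37, SE 0.18 and 0.18, adjusted p = 0.143 and 0.253).

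All 3 KRT-positive libraries were of the AT class, as were unsorted replicates 1 and 2 but not 3. The members' share was 5.61, 5.59 and 5.61% in KRT-positive cells, against 6.98, 7.49 and 8.52% in unsorted cells, so the AT-class unsorted libraries also lay above KRT-positive ones. With only the AT-class libraries, 3 KRT-positive against 2 unsorted, 30 members were lower and 0 higher, with a median log2 fold change of -0.51, and with the GC class as a term 36 were lower. Scaled to library totals, without TMM factors, the median over all tested genes was 0.29 and over the members -0.35. There 17 members were lower, against 3.50% of all tested genes. Without KRT-positive replicate 1, 2 or 3 the number called was 17, 14 or 13, and without unsorted replicate 3, the library with low SETDB1, it was 21. All were lower, against 3.34%, 3.21%, 3.20% and 3.66% of all genes called lower in the same order.

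**Figure D5:**
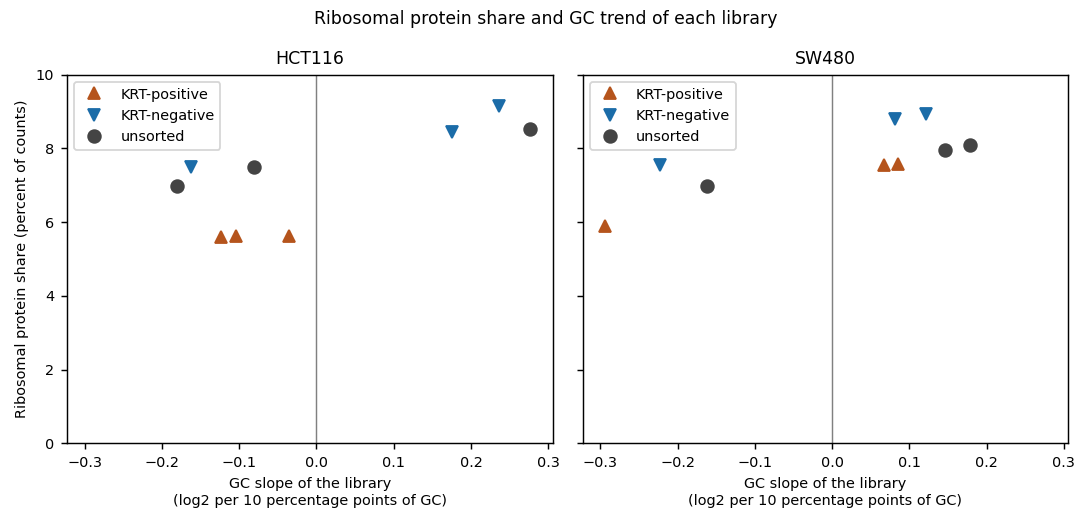
Share of counts on ribosomal protein genes (percent) against the GC slope of each library (change in log2 CPM per 10 percentage points of transcript GC content) in HCT116 (left) and SW480 (right). Points are libraries, and the vertical line at 0 parts the AT class (left) from the GC class. HCT116 KRT-positive libraries lie lowest within the AT class, and the AT-class library of each SW480 group lies below the other libraries of its group.

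KRT-positive against KRT-negative HCT116 cells showed the same sign in every member: 0 of 77 log2 fold changes were above 0, with a median of -0.67, against 0.03 over all tested genes. Few passed the test, 0 higher and 4 lower, against 0.166% and 0.384% of all tested genes. DESeq2 gave 0 higher and 35 lower, against 1.32% and 2.12% of all genes tested in that fit. RPS27A had 5047, 3933 and 4436 CPM in KRT-positive cells, against 7816, 9953 and 10916 CPM in KRT-negative cells (log2 fold change -1.10 with SE 0.21, adjusted p = 0.028). RPL8, a large-subunit protein at the peptidyl transferase centre, had 1173, 1306 and 1249.8 CPM in KRT-positive cells, against 1955, 3067 and 2568 CPM in KRT-negative cells (log2 fold change -1.03 with SE 0.21, adjusted p = 0.0376). RPS12 and RPL11 were the other two, at log2 fold changes of -0.90 ± 0.19 (SE; adjusted p = 0.0452) and -0.87 ± 0.19 (SE; adjusted p = 0.0489). In each of these the groups were apart, and KRT-negative replicate 1, the only one of the AT class, was the lowest KRT-negative library for RPS27A, RPL8 and RPS12. With only AT-class libraries the KRT-negative arm is replicate 1 alone, and the log2 fold changes were -0.80 for RPS27A, -0.65 for RPL8, -0.62 for RPS12 and -0.91 for RPL11, given without a test. Without KRT-negative replicate 1, 0 members were higher and 11 lower, against 0.281% and 0.656% of all genes tested in that fit. Without any 1 of the other 5 libraries the number called was 0. In 66 members every KRT-positive library lay below every KRT-negative one and in 0 above, against 9.44% and 8.77% of all tested genes.

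KRT-negative cells against unsorted HCT116 cells had 1 member higher and 2 lower, against 2.82% and 2.44% of all tested genes, with a median log2 fold change of 0.09. RPL13A had 401, 423 and 434 CPM in KRT-negative cells, against 196, 249.9 and 238 CPM in unsorted cells, without overlap (log2 fold change 0.88 with SE 0.22, adjusted p = 0.0249). RPL6 had 368, 305 and 307 CPM in KRT-negative cells, against 535, 717 and 476 CPM in unsorted cells, and was lower (log2 fold change -0.82 with SE 0.22, adjusted p = 0.0377). RPL7A also fell (log2 fold change -0.77 with SE 0.21, adjusted p = 0.0438). RPL6 and RPL7A were thus lower in both HCT116 fractions, which share the unsorted libraries. Without KRT-negative replicate 2 or 3, or unsorted replicate 1 or 2, no member was called. Without unsorted replicate 3, the library with low SETDB1, 3 members were higher and 1 lower, against 2.99% and 2.255% of all genes tested in that fit. Scaled to library totals 2 were higher and 2 lower, against 3.095% and 2.33%. With only the AT-class libraries, 1 KRT-negative against 2 unsorted, the log2 fold changes of RPL13A, RPL6 and RPL7A were 0.84, -0.77 and -0.74, given without a test.

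Falls among the other lists in HCT116 KRT-positive cells covered a minority of each. Against unsorted cells 11 of 35 ribosome biogenesis genes fell and 1 rose, with a median log2 fold change of -0.998. The falls were 31.4% of that list, 16.9% of mitochondrial ribosomal proteins and 43.8% of TOP factors, against 5.02% of all tested genes. FBL, the fibrillarin that methylates ribosomal RNA, averaged 83.4 ± 0.829 CPM in KRT-positive cells, against 502 ± 96.95 CPM in unsorted cells (SD, n = 3 each; log2 fold change -2.59 with SE 0.25, adjusted p = 1.43e-05). NCL and NPM1 fell, with log2 fold changes of -1.28 ± 0.18 (SE; adjusted p = 0.000324) and -1.32 ± 0.21 (SE; adjusted p = 0.000771). Of 77 mitochondrial ribosomal proteins 13 fell and 0 rose, and of 16 TOP factors 7 fell and 0 rose, EIF3L with a log2 fold change of -1.77 ± 0.32 (SE; adjusted p = 0.00231). FAU did not pass (log2 fold change -0.63 with SE 0.21, adjusted p = 0.0709). Of the regulators, SESN2, an inhibitor of mTORC1 signalling, rose in KRT-positive and in KRT-negative cells against unsorted cells (log2 fold changes 2.18 and 2.72, SE 0.37 and 0.38, adjusted p = 0.00149 and 0.000437), and DDIT4 rose in KRT-negative cells (log2 fold change 2.78 with SE 0.28, adjusted p = 3.07e-05).

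In SW480 few members were called. KRT-positive against unsorted cells had 0 higher and 3 lower, against 1.9% and 1.57% of 13252 tested genes. The median log2 fold change was -0.25 over the members and 0.03 over all tested genes. DESeq2 gave 1 higher and 15 lower, against 5.71% and 4.54% of all genes tested in that fit. RPS25, a small-subunit protein that several viral initiation sites need, had 112, 99.7 and 132 CPM in KRT-positive cells, against 278, 277 and 247 CPM in unsorted cells. All KRT-positive libraries lay far below (log2 fold change -1.22 with SE 0.23, adjusted p = 0.0101). RPL10A had 245, 301 and 262 CPM in KRT-positive cells, against 613, 559 and 523 CPM in unsorted cells, again apart (log2 fold change -1.07 with SE 0.19, adjusted p = 0.00787). RPL27 was lower too (log2 fold change -0.91 with SE 0.20, adjusted p = 0.0271). With the GC class as a term, which also sets replicate 2 apart, 16 members were lower and 1 higher, against 3.30% and 3.40% of all tested genes.

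KRT-positive against KRT-negative SW480 cells had 0 members higher and 2 lower, against 0.226% and 0.219% of all tested genes, with a median log2 fold change of -0.40. DESeq2 gave 0 higher and 11 lower, against 1.90% and 1.92% of all genes tested in that fit. RPL30 had 357, 314 and 295 CPM in KRT-positive cells, against 628, 737 and 683 CPM in KRT-negative cells, without overlap (log2 fold change -1.08 with SE 0.18, adjusted p = 0.0215). RPS25 had 112, 99.7 and 132 CPM in KRT-positive cells, against 218, 316 and 248 CPM in KRT-negative cells, also apart (log2 fold change -1.19 with SE 0.23, adjusted p = 0.0412). RPL9, on few counts, had 14.99, 17.4 and 21.00 CPM in KRT-positive cells, against 41.1, 37.02 and 37.5 CPM in KRT-negative cells and did not pass (log2 fold change -1.12 with SE 0.44, adjusted p = 0.369). In 41 members every KRT-positive library lay below every KRT-negative one and in 0 above, against 9.96% and 7.76% of all tested genes. With the GC class as a term 0 were higher and 12 lower, against 0.641% and 1.05% of all tested genes. With only the GC-class libraries, 2 a group, edgeR called 0, and without any 1 library it called 0 or 1, with 0 when KRT-negative replicate 1 was left out.

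KRT-negative against unsorted SW480 cells had 1 member higher and 0 lower, against 1.36% and 0.762% of all tested genes, with a median log2 fold change of 0.15. The member was RPLP2 of the acidic stalk, with 4506, 3642 and 4297 CPM in KRT-negative cells, against 2066, 1889 and 2721 CPM in unsorted cells. The groups did not overlap (log2 fold change 0.90 with SE 0.18, adjusted p = 0.021). RPLP1, with which it pairs on the stalk, did not pass (log2 fold change 0.30 with SE 0.15, adjusted p = 0.431), nor did RPLP0 (log2 fold change 0.17 with SE 0.21, adjusted p = 0.901). Without KRT-negative replicate 1 or 3, or unsorted replicate 1 or 2, RPLP2 was not called; KRT-negative replicate 1 is the library whose SETDB1 was not lower. With the GC class as a term 5 members were higher and 2 lower, against 2.35% and 1.65% of all tested genes.

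The spread between replicates differed by line. The median coefficient of variation of the members between replicates was 4.87% in Caco2 KRT20-positive cells, 9.79% in KRT20-negative cells, 3.80% in differentiation medium and 3.92% in vehicle. In HCT116 it was 10.8% in KRT-positive, 14.3% in KRT-negative and 16.9% in unsorted cells, and in SW480 16.8%, 11.5% and 11.5% in the same order. Over non-members that averaged 20 CPM or more these medians were larger in HCT116 and SW480, for example 25.6% in HCT116 KRT-positive and 36.3% in SW480 KRT-positive cells. The median standard error of a member's log2 fold change was 0.08 in the Caco2 comparison of differentiation medium with vehicle, 0.22 in HCT116 KRT-positive against unsorted cells and 0.20 in SW480 KRT-positive against unsorted cells. The lowest member, RPL15, had 23 counts in the library where it was lowest.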

How the data were processed

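QuantSeq 3′ tag libraries of 30 samples were used as the authors deposited them, as raw counts per gene symbol, 1 table per library; the values were checked to be whole numbers. The submitters' processing notes name Bowtie2, edgeR and the build hg19, and how tags matching several places were counted is not given in the sources used here. Lines with a repeated symbol (286 symbols; RPS18 was listed 6 times with all counts in 1 line) were summed, leaving 24462. The members, lists and the rule for named genes were chosen with earlier results of these data known.

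For every cell line a separate edgeR model (version 4.0.16, R 4.3.3) held all groups of that line, with filterByExpr, TMM factors and robust quasi-likelihood F tests, without a replicate block, and genes were called at 5% FDR over all tested genes of the line (13968, 13279 and 13252; all 77 members passed the filter). SE is the log2 fold change over the square root of F. CPM used TMM factors per line. The GC slope of a library was the slope of its line-centred log2 CPM on transcript GC content (GENCODE 29) over non-members with a mean of at least 20 CPM; below 0 it gave the AT class. Named genes were, per comparison and direction, up to 6 called members with the smallest adjusted p and up to 3 with the largest log2 fold change, the 5 highest and lowest members of each subunit, the stalk and 5S particle genes and other members fixed by name, and up to 4 genes of each list. Promoter windows came from RefSeq; 62 members matched. A few genes are counted in the totals but not reported by name or plotted singly. Alternatives were RLE factors, library totals, no filter, DESeq2 1.42.0, a replicate block, 2 groups only, each library left out, and the GC class. The procedure was tested on simulated data.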

Additional observations from a re-analysis of the deposited data

Results flagged for a closer look

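KRT-positive shSETDB1 cells stood on opposite sides of their control in Caco2 and in HCT116. In Caco2 the share of counts on all ribosomal protein genes was 1.024 percentage points higher in KRT20-positive cells than in vehicle, and every KRT20-positive library was above every vehicle library. In HCT116 the share differed by -2.062 percentage points between KRT-positive and unsorted cells, with every KRT-positive library below every unsorted one. For the large subunit the differences were 0.5008 points in Caco2 and -0.9373 points in HCT116, and for the small subunit 0.5229 points in Caco2 and -1.124 points in HCT116. The difference between the lines was not tested. The control was shScramble vehicle in Caco2 and unsorted cells in HCT116, so line and kind of control cannot be told apart. In SW480 the share differed by -0.666 points between KRT-positive and unsorted cells, with overlap. Against the KRT-negative fraction of the same line, the KRT-positive share was lower in all 3 lines. The differences were -0.527 points in Caco2, -2.766 in HCT116 and -1.416 in SW480, with overlap in Caco2 and SW480. Opposite sides were thus seen only against these unlike controls.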

How the results depend on the processing

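Numbers of members called moved by over 1.5 times as follows, and the cause was not tested. Brackets give the members called higher and lower, then the percent of all tested genes called higher and lower under the same setting. With a replicate block the number was 5 (1 and 4, 3.06% and 2.69%) in Caco2 KRT20-positive against KRT20-negative. Against differentiation medium it was 22 (7 and 15, 21.1% and 20.3%) in Caco2 KRT20-negative and 24 (4 and 20, 19.45% and 18.65%) in Caco2 KRT20-positive. Against unsorted it was 5 (4 and 1, 2.12% and 1.36%) in SW480 KRT-negative and 16 (1 and 15, 3.02% and 2.97%) in SW480 KRT-positive. In SW480 KRT-positive against KRT-negative it was 9 (0 and 9, 0.491% and 0.860%). With only the 2 groups compared in the fit the number was 0 (0 and 0, 1.56% and 0.699%) in Caco2 KRT20-positive against KRT20-negative. Against differentiation medium it was 9 (3 and 6, 16.9% and 16.4%) in Caco2 KRT20-negative and 23 (5 and 18, 20.9% and 20.6%) in Caco2 KRT20-positive. Against unsorted it was 0 (0 and 0, 1.78% and 2.03%) in HCT116 KRT-negative and 3 (3 and 0, 1.955% and 1.51%) in SW480 KRT-negative. For KRT-positive against KRT-negative it was 12 (0 and 12, 0.324% and 0.672%) in HCT116 and 0 (0 and 0, 0.0974% and 0.0487%) in SW480. With RLE size factors the number was 2 (0 and 2, 0.166% and 0.301%) in HCT116 KRT-positive against KRT-negative, 1 (0 and 1, 0.249% and 0.196%) in SW480 KRT-positive against KRT-negative. With library totals the number was 17 (0 and 17, 6.175% and 3.50%) in HCT116 KRT-positive against unsorted, 1 (0 and 1, 0.302% and 0.174%) in SW480 KRT-positive against KRT-negative. With no low-count filter the number was 16 (0 and 16, 0.310% and 0.774%) in HCT116 KRT-positive against KRT-negative, 2 (2 and 0, 1.23% and 0.707%) in SW480 KRT-negative against unsorted. With the GC class as a term the number in HCT116 was 7 (3 and 4, 3.82% and 3.63%) in KRT-negative against unsorted and 2 (0 and 2, 0.0753% and 0.264%) in KRT-positive against KRT-negative. In SW480 it was 7 (5 and 2, 2.35% and 1.65%) in KRT-negative against unsorted and 17 (1 and 16, 3.40% and 3.30%) in KRT-positive against unsorted. For SW480 KRT-positive against KRT-negative it was 12 (0 and 12, 0.641% and 1.05%). With DESeq2 the number in HCT116 was 5 (3 and 2, 4.87% and 4.93%) in KRT-negative against unsorted and 35 (0 and 35, 1.32% and 2.12%) in KRT-positive against KRT-negative. In SW480 it was 6 (5 and 1, 3.64% and 2.66%) in KRT-negative against unsorted and 16 (1 and 15, 5.71% and 4.54%) in KRT-positive against unsorted. For SW480 KRT-positive against KRT-negative it was 11 (0 and 11, 1.90% and 1.92%). With only AT-class libraries HCT116 KRT-negative is 1 library, so no number called is given for its comparisons. With only GC-class libraries, 2 a group, the number in SW480 was 0 (0 and 0, 0.662% and 0.256%) in KRT-negative and 1 (0 and 1, 0.918% and 0.8725%) in KRT-positive against unsorted. For SW480 KRT-positive against KRT-negative it was 0 (0 and 0, 0.05265% and 0.128%). With each library left out in turn the lowest and highest numbers were 28 and 33 in Caco2 differentiation medium against vehicle (main 39), 27 and 38 in Caco2 KRT20-negative against vehicle (main 38), 21 and 25 in Caco2 KRT20-positive against vehicle (main 30), 0 and 4 in Caco2 KRT20-positive against KRT20-negative (main 2), 7 and 21 in Caco2 KRT20-negative against differentiation medium (main 14), 7 and 14 in Caco2 KRT20-positive against differentiation medium (main 15), 0 and 4 in HCT116 KRT-negative against unsorted (main 3), 13 and 25 in HCT116 KRT-positive against unsorted (main 28), 0 and 11 in HCT116 KRT-positive against KRT-negative (main 4), 0 and 1 in SW480 KRT-negative against unsorted (main 1), 2 and 3 in SW480 KRT-positive against unsorted (main 3), 0 and 1 in SW480 KRT-positive against KRT-negative (main 2). The share of counts moved by over 1 SD to 9.73% in Caco2 KRT20-positive, 10.6% in Caco2 differentiation medium, 5.12% in HCT116 KRT-positive as a percent of the TMM library size, to 10.5% in Caco2 KRT20-positive, 10.97% in Caco2 differentiation medium, 9.41% in Caco2 vehicle, 5.98% in HCT116 KRT-positive without the 20 most abundant other genes, and to 10.2% in Caco2 KRT20-positive, 10.5% in Caco2 differentiation medium, 9.11% in Caco2 vehicle, 5.73% in HCT116 KRT-positive with pseudogene symbols. Leaving out a library gave shares of 9.85% to 9.97% in Caco2 KRT20-positive, 10.01% to 10.7% in Caco2 KRT20-negative, 10.3% to 10.3% in Caco2 differentiation medium, 8.84% to 8.91% in Caco2 vehicle, 5.60% to 5.61% in HCT116 KRT-positive, 7.98% to 8.80% in HCT116 KRT-negative, 7.24% to 8.01% in HCT116 unsorted, 6.72% to 7.57% in SW480 KRT-positive, 8.17% to 8.87% in SW480 KRT-negative, 7.47% to 8.02% in SW480 unsorted. Alternatives kept direction and call in all 72 named values for differentiation medium against vehicle and 112 for HCT116 KRT-positive against unsorted. In SW480 KRT-positive against KRT-negative 16 of 28 lost the call. Naming used main calls, so kept ones are no support. Same-numbered replicates had correlations of deviations of 0.0082 to 0.11 (Caco2), -0.04 to 0.11 (HCT116) and 0.02 to 0.15 (SW480). Replicates with other numbers had -0.11 to 0.03, -0.22 to 0.13 and -0.11 to 0.06 in the same order. The ranges overlapped in each line, but in Caco2 and SW480 they lay higher for the same number. In SW480 replicate 2 of every group was of the AT class. The main fits used no pairing, and whether the numbers pair the samples was not tested. Numbers called that a replicate block moved are given above. The AT and GC subsets were added after seeing the data. Depth limits RPL15, RPS26 and RPL21 most.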
